A study of Homo sapiens with 12 samples.

Results

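The genomic windows that hold the human keratin gene clusters were examined for acetylation (H3K9ac) and dimethylation (H3K9me2) of lysine 9 of histone H3 in MDA-MB-231 cells, an established human triple negative breast adenocarcinoma line. The windows were set by position alone on hg19: chromosome 12 from 52550001 to 53350000 for the type II keratins together with KRT18, and chromosome 17 from 38800001 to 39800000 for the type I keratins and the keratin-associated proteins. In steps of 10 kb this gave 180 steps of the 303421 counted on 23 chromosomes, 80 in the type II window and 100 in the type I window. The last 6 steps of the type II window, 53290001 to 53350000, form the KRT8 and KRT18 stretch, and the other 174 steps are called the rest. All cells were serum starved overnight; treated cells then had 500 µM DETA/NO, a slow nitric oxide donor, for 24 h, and untreated cells served as the control. Each mark was profiled in 2 biological replicates per condition, to see how the positions of the marks differ after nitric oxide. The values are lengths covered by the authors' called peaks or islands in each library; the lists hold no read counts, so the sequencing depth is unknown. The chromatin came from whole cultures of 1 line, so acetylation in more cells and more acetylation per cell cannot be told apart.

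Keratins are the intermediate filament proteins of epithelial cells, and every filament is built from type I and type II partners in equal amounts. KRT8 (type II) and KRT18 (type I) are the partners of simple epithelia, KRT7 and KRT19 join them in ducts, KRT5 and KRT14 are the partners of basal epithelial cells, KRT1 and KRT10 those of differentiating epidermis, and the large remainder serve the hair follicle, hair shaft, nail and other stratified epithelia. KRT18 is the only type I keratin gene that sits in the type II cluster, beside its partner. H3K9ac marks active promoters and enhancers, and H3K9me2 marks broad silent domains.

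In the RefSeq gene table (GRCh38.p14, used for names and order only) 27 protein-coding genes run from KRT80 to KRT18, all of them keratins, with KRT8 and KRT18 last. From KRT222 to KRT17 the type I cluster has 62 protein-coding genes, 28 keratins and 34 keratin-associated proteins. No annotation of hg19 was used here, so gene names are given to the KRT8 and KRT18 stretch alone, which its definition names, and the other loci are given by position. In the same gene order KRT80 and KRT7 come first in the type II cluster, and KRT15, KRT19, KRT9, KRT14, KRT16 and KRT17 come last in the type I cluster. Which of these genes an acetylated locus belongs to was not determined here.

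Many keratin genes are active in particular lineages only, and the keratin promoters found here held few CpG dinucleotides. RefSeq promoter sequences of 300 bases, 250 before and 50 after a gene's start, were found for 34 of the 55 keratins of both clusters. KRT18, KRT7, KRT19 and KRT14 were among the keratins without one, so these values do not cover them. The 34 promoters held a median of 2 CpG dinucleotides, from 0 to 8, against a median of 14 over all 35116 promoters. The motif TATAAA, searched on both strands, was present in 20 of the 34, against 11.5% of all promoters. The Sp1-type motif GGGCGG was in 6 of the 34, against 45.0% of all promoters, and the AP-1 motif TGANTCA in 0 of the 34, against 7.71%. Matches are descriptions of these letters and not of bound factors. A pair is printed, with and without TATAAA. KRT10 has its TATAAA in capitals, and in KRT8, a keratin of the acetylated stretch, none of the 3 motifs was found. KRT10 held 1 CpG dinucleotide and KRT8 held 2. Both are on the minus strand of GRCh38.p14, at chr17:40822565-40822864 and chr12:52926420-52926719. These positions cannot be set against the hg19 positions elsewhere. KRT8 has several annotated starts and the table gives 1 of them.
KRT10: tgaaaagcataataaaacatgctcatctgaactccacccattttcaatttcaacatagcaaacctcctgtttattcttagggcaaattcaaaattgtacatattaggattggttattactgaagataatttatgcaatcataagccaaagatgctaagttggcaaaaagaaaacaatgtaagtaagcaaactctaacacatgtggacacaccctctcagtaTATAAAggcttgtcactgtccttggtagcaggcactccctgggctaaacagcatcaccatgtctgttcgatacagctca
KRT8: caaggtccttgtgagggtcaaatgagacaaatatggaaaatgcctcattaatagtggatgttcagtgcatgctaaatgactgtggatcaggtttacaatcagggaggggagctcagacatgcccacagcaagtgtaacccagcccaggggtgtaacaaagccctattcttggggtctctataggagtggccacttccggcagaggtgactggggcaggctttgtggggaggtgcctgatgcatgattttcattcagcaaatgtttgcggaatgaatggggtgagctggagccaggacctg

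Reproducible H3K9ac in the keratin windows lay in compact loci, and most steps carried none, as did most steps of the genome. Of the 180 steps, 18 (10%) met a region of the authors' reproducible set of either condition, against 6.96% of all steps. They comprised 4 of the 6 steps of the KRT8 and KRT18 stretch and 14 of the 174 steps of the rest (8.05%). Both shares were above that of all steps. Outside the stretch each window was below the share of its own chromosome: the type I window was at 9%, against 16.0% of chromosome 17. The type II window without the stretch was at 6.76%, against 7.62% of chromosome 12. Peaks of single libraries were more scattered: 92 of the 180 steps (51.1%) held a peak in at least 1 library, against 42.9% of all steps. Peaks in all 4 libraries were held by 9 steps (5%), near the 5.26% of all steps. Untreated replicate 1 had a peak in 69 steps, untreated replicate 2 in 28, treated replicate 1 in 37 and treated replicate 2 in 34. Over all 303421 steps these counts were 88626, 44366, 41999 and 43968 in the same order.

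**Figure D1:**
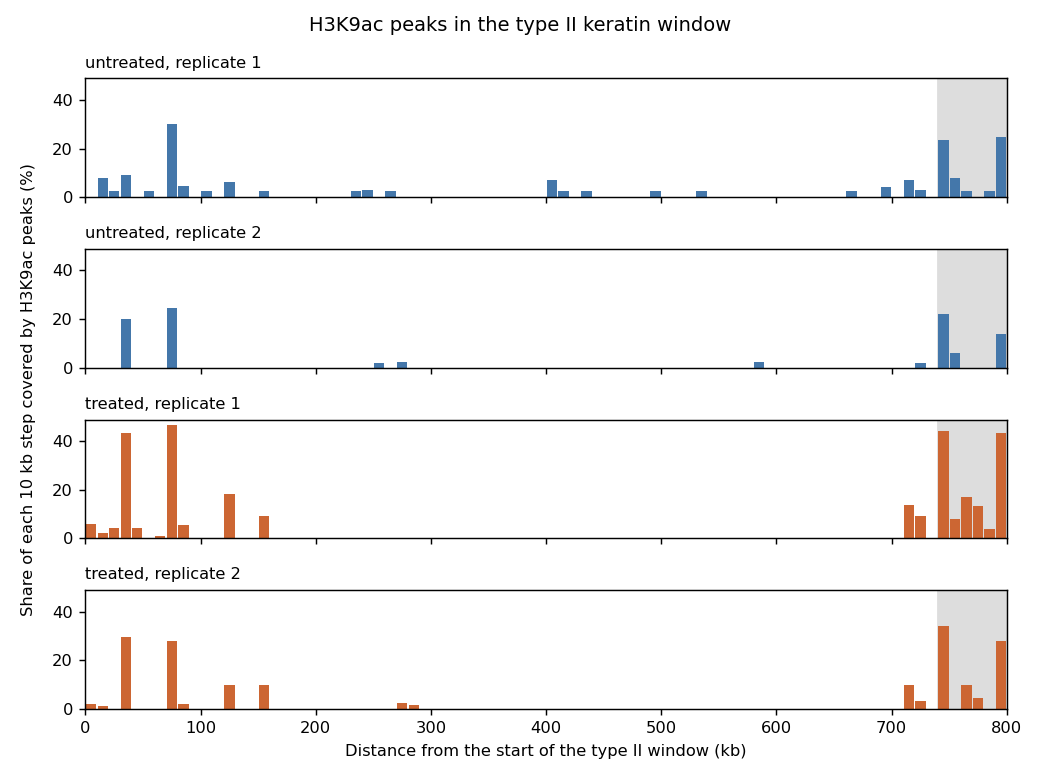
Share of each 10 kb step covered by H3K9ac peaks (y axis, %) against distance from the start of the type II window (x axis, kb), 1 panel per library; the grey band is the KRT8 and KRT18 stretch. Tall bars stand at both ends of the window in all 4 libraries, and the middle holds only low bars.

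Many of the scattered peaks, above all in untreated replicate 1, had the smallest width that their list contains. In untreated replicate 1 the narrowest width was 238 bp, and 45 of its 99 peaks in the windows had exactly that width. The corresponding numbers were 13 of 46 peaks at 175 bp in untreated replicate 2, 6 of 83 at 99 bp in treated replicate 1 and 10 of 66 at 114 bp in treated replicate 2. In percent these were 45.5, 28.3, 7.23 and 15.2 in the windows, against 44.3, 30.1, 10.5 and 22.9 over the whole lists in the same order, so untreated lists held more such peaks than treated ones genome-wide. Peaks that met a reproducible locus had median widths of 449.5, 418.5, 729.5 and 499 bp, against 238, 176.5, 211 and 162 bp for peaks elsewhere in the windows. Reproducible loci held 45.9% of the peak length of the windows in untreated replicate 1, 70.7% in untreated replicate 2, 68.0% in treated replicate 1 and 82.2% in treated replicate 2.

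In the KRT8 and KRT18 stretch every library had H3K9ac. H3K9ac peaks covered 10.1% and 7.02% of it in untreated replicates 1 and 2 and 21.6% and 12.7% in treated replicates 1 and 2. The conditions did not overlap, with treated and untreated means of 17.1% ± 6.26 and 8.57% ± 2.19 (SD, n = 2), a ratio of 2.00. The exact two-sided permutation p was 0.333, the smallest that 2 libraries against 2 allow. Such an order is common: both treated libraries were above both untreated ones in 54.5% of all 60 kb stretches with peaks in all 4 libraries.

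The first locus of the stretch, 53296101 to 53299520, was 3420 bp wide. Peaks covered 2213 bp of it in untreated replicate 1, 2212 bp in untreated replicate 2, 3367 bp in treated replicate 1 and 3164 bp in treated replicate 2. The untreated libraries were nearly equal here, and both treated libraries were higher. Untreated replicate 1 had 1 peak across the locus, untreated replicate 2 had 4, treated replicate 1 had 1 and treated replicate 2 had 2, so the number of peaks did not separate the conditions. Its reproducible region was 2485 bp long in the untreated set and 3420 bp in the treated set.

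The last locus, 53342020 to 53345191, was 3172 bp wide. Covered lengths were 2244 and 1006 bp in the untreated libraries and 3172 and 2501 bp after treatment, again without overlap between the conditions. It held the highest-scoring peak of the stretch in every library. By the authors' score that peak ranked 2631 of 120630 in untreated replicate 1, 4651 of 59724 in untreated replicate 2, 4068 of 79538 in treated replicate 1 and 5497 of 69151 in treated replicate 2. Both this locus and the first one had peaks in all 4 libraries; which of them belongs to KRT8 and which to KRT18 was not determined here.

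Between those loci lay weaker H3K9ac that differed more between libraries. The region at 53317710 to 53318881 was free of untreated peaks, and peaks covered 998 and 629 bp of it in the treated libraries. It ranked 19516 of 21098 in the treated set by the authors' score, so it was among the weak regions of that set. Treated libraries also had peaks in the following step, 53320001 to 53330000, with 1324 and 460 bp, where the untreated libraries had 0 and 0 bp. In the opposite direction, a small untreated region at 53301788 to 53302025 was in the untreated set only; peaks covered 238, 175, 238 and 0 bp of it, so only treated replicate 2 lacked it.

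Set against the average of the rest of the windows, the stretch was more densely acetylated in each of the 4 libraries. H3K9ac covered 1.86% and 0.853% of the rest in the untreated libraries and 2.27% and 1.49% after treatment, so the stretch was 5.43, 8.23, 9.53 and 8.55 times as densely covered. The difference within a library averaged 11.2 percentage points ± 5.77 (SD, n = 4) and was positive in 4 of 4 libraries. The exact two-sided sign-flip permutation p was 0.125, the smallest that 4 libraries allow. The rest is an average over 174 steps, and 88 of them held no peak in any library, against 173360 of all 303421 steps. Such density was not particular to the stretch. In each library the step 39680001 to 39690000 of the type I window was covered more than any step of the stretch. For scale, peaks covered 1.17% ± 0.595 of the 23 chromosomes in untreated and 1.48% ± 0.333 in treated libraries (SD, n = 2).

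The treatment difference was larger in the stretch than in the rest taken as a whole, but the design cannot carry a call. The stretch differed by 8.58 percentage points between treated and untreated means and the rest by 0.519, a difference of 8.06 points with an exact permutation p of 0.333, again the smallest possible. In the rest the conditions overlapped, with means of 1.36% ± 0.714 and 1.88% ± 0.549 (SD, n = 2; exact permutation p = 0.667). The stretch differed by 4.15 points without treated replicate 1 and by 13.0 points without treated replicate 2, and by 9.40 points when peaks of the narrowest width were left out, a choice made after seeing the data. As a ratio, treated over untreated was 2.00 in the stretch, 1.63 in the type II window without it, 1.25 in the type I window and 1.27 over the 23 chromosomes. The difference of the type I window, 0.396 points, turned to -0.207 without untreated replicate 2. A large difference was not particular to the stretch. In the type I window the step 39680001 to 39690000 was covered to 35.5% and 22.6% untreated and to 64.1% and 44.3% treated. The first step of the stretch was covered to 23.4% and 22.1% untreated and to 44.1% and 34.1% treated.

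**Figure D2:**
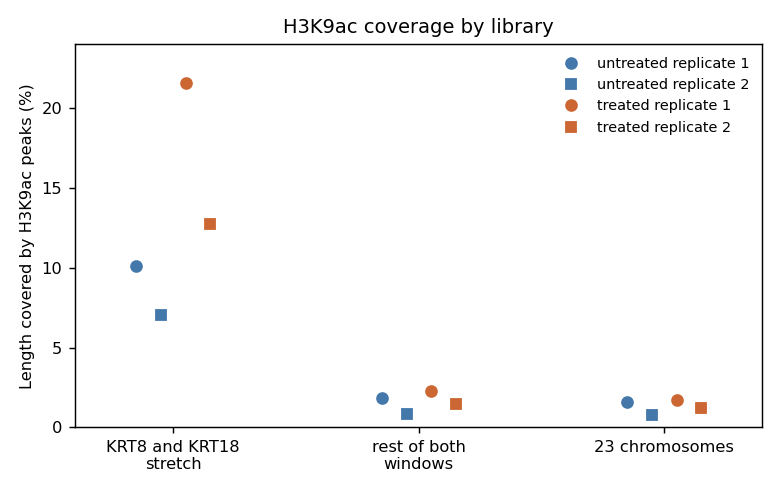
Length covered by H3K9ac peaks (y axis, %) in the KRT8 and KRT18 stretch, in the rest of both windows and over 23 chromosomes; each point is 1 library, circles replicate 1 and squares replicate 2. All 4 libraries are higher in the stretch, from 7.02% to 21.6%, than in the rest, from 0.853% to 2.27%.

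Outside the stretch, the type II window had 7 reproducible loci, all in the treated set and 2 of them in the untreated set. Absence from the untreated set was common: it held for 14 of the 23 treated regions of both windows, against 45.1% of all treated regions. The longest of the 7 loci was at 52625267 to 52629049. Peaks covered 3003 and 2458 bp of it in the untreated libraries and 3783 and 2560 bp after treatment. The conditions overlapped there, since untreated replicate 1 exceeded treated replicate 2. At the locus nearest to the start of the window, 52583477 to 52586035, covered lengths were 914 and 1473 bp untreated and 2491 and 2231 bp treated. At this locus the conditions did not overlap.

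The other 5 loci of that window were short and in the treated set only. The one at 52701939 to 52702927 had 238 and 0 bp in the untreated libraries and 935 and 971 bp after treatment. At 52674390 to 52674801 no untreated library had a peak, and the treated ones had 397 and 362 bp. A neighbouring locus at 52673351 to 52674095 had 317, 0, 726 and 464 bp in the order untreated replicates 1 and 2, treated replicates 1 and 2. The last 2 stood side by side shortly before the stretch, at 53267375 to 53268070 and 53268274 to 53268770, with 449, 0, 696 and 419 bp and 238, 0, 497 and 407 bp. Untreated replicate 2 was at 0 in all 5 of these loci, and untreated replicate 1 in 1 of them.

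**Figure D3:**
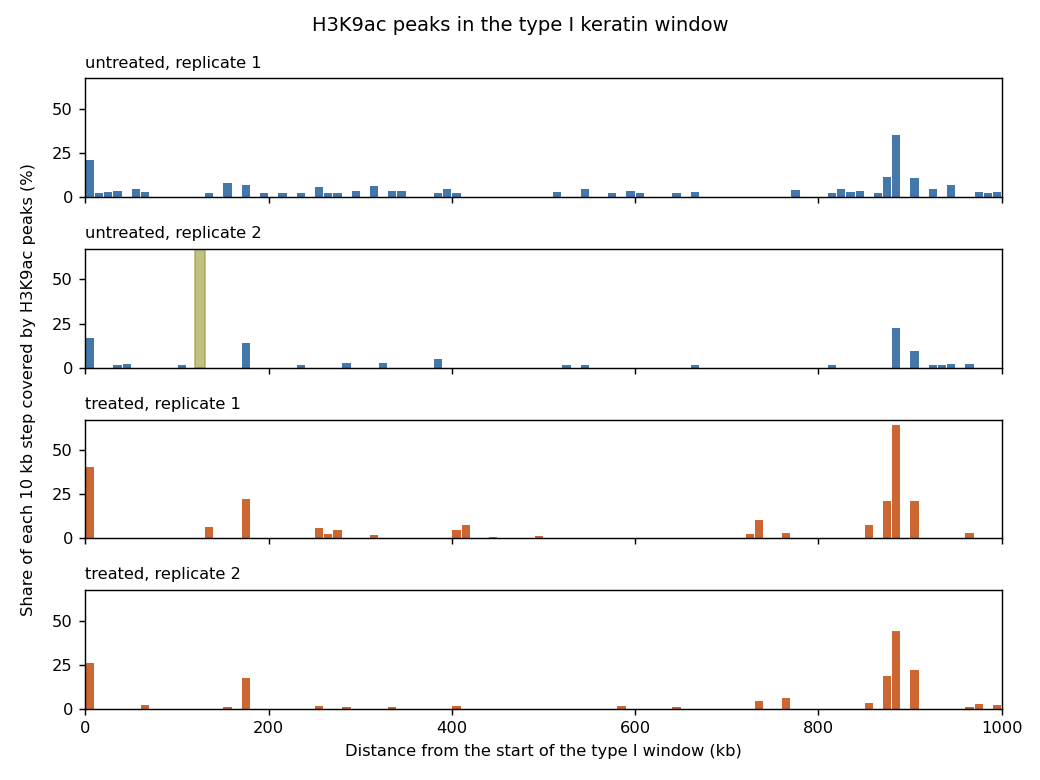
Share of each 10 kb step covered by H3K9ac peaks (y axis, %) against distance from the start of the type I window (x axis, kb), 1 panel per library; the olive band is the single H3K9me2 island. The tallest bar in every library is at 880 kb, and the step at 0 kb is second in every library.

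In the type I window H3K9ac was most extensive at 39681149 to 39686506. This locus was 5358 bp wide, the widest of the 24 loci in both windows. Peaks covered 3248 and 2255 bp of it in the untreated libraries and 5358 and 3576 bp after treatment, with both treated libraries above both untreated. The untreated set had 3 separate regions across it, 2790 bp in sum, where the treated set had 1. Its top peak ranked 867 of 120630 and 782 of 59724 in the untreated lists and 5392 of 79538 and 1540 of 69151 in the treated lists.

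Smaller treated regions ran up to this widest locus from its left. The one at 39678200 to 39679184 had 414 and 0 bp of peaks in the untreated libraries and 973 and 969 bp after treatment. At 39679582 to 39680301 both untreated libraries were at 0 bp and the treated ones had 671 and 541 bp. The remaining 2, at 39677256 to 39677988 and 39680422 to 39681038, had 473, 0, 733 and 382 bp and 299, 0, 587 and 556 bp in the order untreated replicates 1 and 2, treated replicates 1 and 2. None of these 4 was in the untreated set, which also holds for 45.1% of all treated regions. The 10 kb step that holds most of them, 39670001 to 39680000, was covered to 11.3% and 0% in untreated and to 21.3% and 18.7% in treated libraries.

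Both sets shared 4 further loci of the type I window. The one at the edge of the window, 38802235 to 38805696, had 2090 and 1704 bp in the untreated libraries and 3462 and 2605 bp after treatment. At 38974135 to 38976465 peaks covered 695 and 1427 bp untreated and 2212 and 1754 bp treated. A neighbouring pair beyond the widest locus, at 39703370 to 39704353 and 39704520 to 39705756, had 238 and 439 bp and 285 and 324 bp in untreated libraries. In treated libraries that pair had 939 and 948 bp and 1176 and 1231 bp. All 4 were higher in both treated libraries than in both untreated ones. This order is common, since it held for 85.9% of all merged reproducible loci, so it does not set these 4 apart.

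Of the 24 loci of the windows 20 were longer in each treated library than in each untreated one, against 85.9% of 21916 merged reproducible loci on the 23 chromosomes. This share was near the background. The 4 loci in which the conditions overlapped were those at 52625267, at 53267375, at the small untreated region of the stretch and at 39677256. Loci were taken from the union of both sets, and 14 of the 24 came from the treated set alone and 1 from the untreated set alone, a choice of loci that leans towards longer treated coverage.

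**Figure D4:**
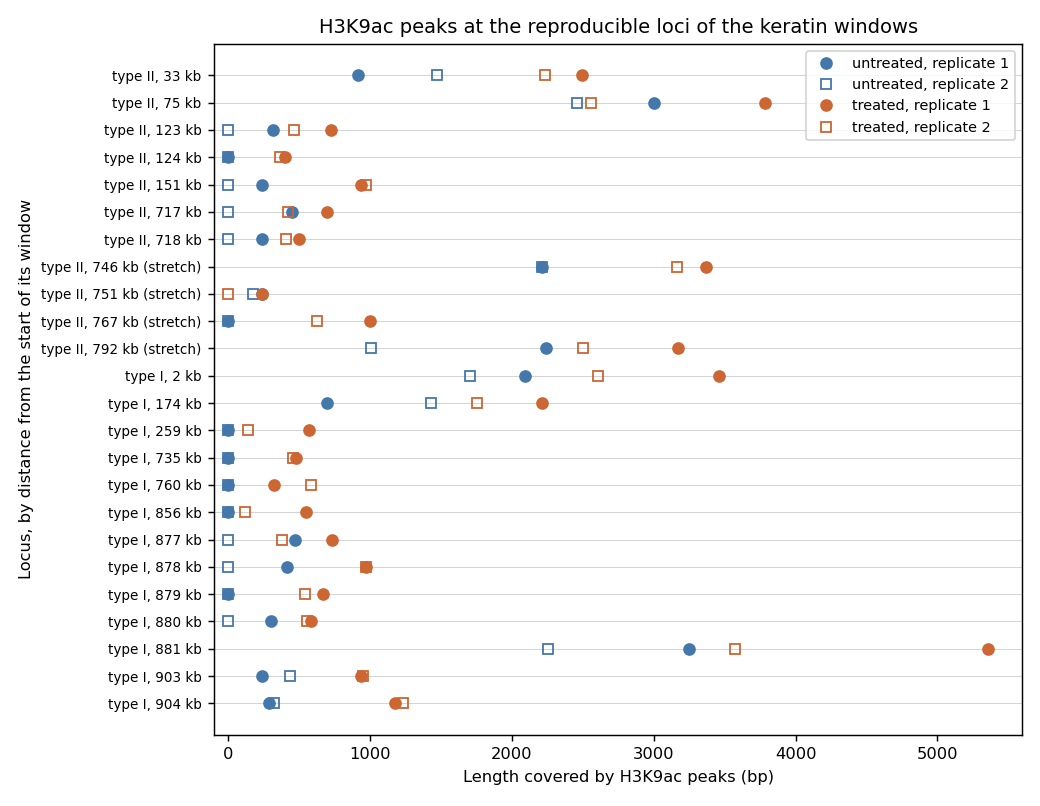
Length covered by H3K9ac peaks (x axis, bp) at the 24 reproducible loci, listed from top to bottom by distance from the start of their window; each point is 1 library. The long loci at 33, 75, 746 and 792 kb of the type II window and at 2 and 881 kb of the type I window have peaks in all 4 libraries, whereas most short loci are at 0 in at least 1 untreated library.

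Regions present only after treatment were short. Of the 23 treated regions in the windows 7 met no peak in either untreated library, against 15.1% of all treated regions, and are called gained here. Of the 13 untreated regions 0 met no treated peak, against 4.4% of all untreated regions. Beside the region in the KRT8 and KRT18 stretch and those at 52674390 and 39679582, the gained regions lay at 39059371 to 39059940, 39535808 to 39536323, 39560537 to 39561119 and 39656437 to 39656983 on chromosome 17. Peaks covered 570 and 138 bp, 475 and 457 bp, 321 and 583 bp, and 547 and 115 bp of these 4 in treated replicates 1 and 2. The 7 regions were 412 to 1172 bp wide and ranked between 16738 and 20951 of 21098 in the treated set by the authors' score. The count rests on untreated replicate 1: without that library 14 of the 23 regions would be called gained, against 27.8% of all treated regions.

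By single 10 kb steps no change was called in the windows in the model used here, and other models and library sets gave other counts. Covered shares of 130061 steps on the 23 chromosomes were fitted with limma on the arcsine square root scale, and 92 of the steps tested were in the windows. With Benjamini-Hochberg adjustment over all steps and a threshold of 0.05, 0 of the 92 were called higher and 0 lower by limma, against 0.567% and 0.00538% of all steps tested. In steps of 5 kb limma called 5 of 127 higher, 2 of them in the stretch, against 2.81% of all such steps. On untransformed shares it called 1 of the 92 steps higher, which was in the stretch, against 1.41%. With the replicate number as a block it called 13 of the 92 higher, 4 of them in the stretch, against 6.91%. No label ties that number to a batch. With 1 untreated library left out, limma tested fewer keratin steps, 85 without replicate 2 and 62 without replicate 1. Without untreated replicate 2 it called 38 steps lower, against 48.9% of all, and without untreated replicate 1 it called 15 lower, against 28.2%. At an unadjusted p under 0.05 there were 17 of the 92, against 9.09% of all, and 4 of these 17 were among the 6 steps of the stretch. The difference treated minus untreated was positive in 36 and negative in 56 of the 92 steps, with a median of -0.066, and the median over all steps tested was -0.067. In the stretch 5 of 6 steps were positive, with a median of 0.182, against 46204 positive of the 130061 steps tested. Among these 5 the step 53330001 to 53340000 differed by 0.021 only, with treated replicate 2 at 0%. Each treated library exceeded each untreated one in 18 of the 92 steps, 4 of them in the stretch, against 15.6% of all steps with a peak, and below both in 8, against 6.62%.

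The smallest adjusted p of the windows was in the middle of the KRT8 and KRT18 stretch. The step 53310001 to 53320000 was covered to 2.38% and 0% in untreated and 16.9% and 9.60% in treated libraries, an arcsine difference of 0.292 ± 0.078 (SE; limma, adjusted p = 0.094). The next step, 53320001 to 53330000, had a difference of 0.294 ± 0.085 (SE; limma, adjusted p = 0.127). The first and last steps of the stretch were covered most, to 23.4%, 22.1%, 44.1% and 34.1% in the first and to 24.8%, 13.8%, 43.4% and 28.1% in the last, in the order untreated replicates 1 and 2, treated replicates 1 and 2. Their adjusted p-values were 0.389 and 0.372 by limma. In the step 52580001 to 52590000 coverage was 9.14% and 20.1% untreated and 43.3% and 29.4% treated (limma, adjusted p = 0.123), and in the step 39680001 to 39690000 it was 35.5% and 22.6% untreated and 64.1% and 44.3% treated (limma, adjusted p = 0.223).

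The body of each cluster formed a long run without reproducible H3K9ac. How common runs of such length are elsewhere in the genome was not tested. In the type II window 55 successive steps, 52710001 to 53260000, met no reproducible region of either condition. In this run of 550 kb the untreated libraries had 11 and 3 peaks, covering 3070 and 657 bp, and the treated libraries had 0 and 2 peaks, covering 0 and 400 bp. Within it, 420 kb from 52840001 to 53260000 had no peak in either treated library, while the untreated libraries had 8 and 1. Which keratin genes fall in this run was not determined here.

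The type I window had a similar run of 47 steps, 39060001 to 39530000. It had 19 and 6 peaks in the untreated libraries, covering 5199 and 1522 bp, and 10 and 5 peaks in the treated libraries, covering 2618 and 687 bp. Of all peaks outside the reproducible loci of both windows, the highest authors' score was 3.87 and 6.85 in the untreated lists and 9.94 and 5.22 in the treated lists, against 26.8, 17.1, 130.8 and 90.9 for peaks inside them. Scores are not comparable between lists, so each pair is read within its library. Steps with peaks in both untreated and neither treated library numbered 8 in the windows, against 5.55% of all steps with a peak, and all 8 were in the type I window. Steps with peaks in both treated and neither untreated library numbered 5, against 3.67%.

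H3K9me2 was nearly absent from the keratin windows. In the type II window, the stretch included, 0 islands were called in any of the 4 libraries. The type I window had 1 island, in untreated replicate 2 alone, from 38919501 to 38930000, 10500 bp wide. It ranked 13144 of 14457 islands in that library by the authors' score, and no H3K9ac peak of any library met it. Only 1 of the 180 steps was at least 50% covered by H3K9me2 in at least 1 library, against 16.8% of all steps. Averaged over their whole length, chromosomes 12 and 17 carried few islands. Islands covered 1.86% to 3.74% of chromosome 12 and 2.76% to 3.25% of chromosome 17, against 7.46% to 9.39% of the 23 chromosomes. On chromosome 12 they were not spread evenly: untreated replicate 2 and both treated libraries had none before the type II window. The average of chromosome 12 therefore does not describe the part around the type II keratins.

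The nearest H3K9me2 islands were megabases away from the type II keratins. After the type II window the first island began 23.4 to 24.2 Mb on in the 4 libraries. Before it, untreated replicate 1 had its nearest island 14.3 Mb away, and the other 3 libraries had none on that side of the chromosome. Around the type I window the nearest islands outside it were 2.65 to 5.53 Mb before and 5.02 to 9.79 Mb after.

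No treatment difference in H3K9me2 was called in the keratin windows. Covered share of the type I window was 0% and 1.05% in the untreated libraries and 0% in both treated ones, and 0% in all 4 libraries in the type II window (exact two-sided permutation p = 1 for each). The stretch was at 0% in every library, so its difference from the rest was -0.151 percentage points on average, from the single island (exact sign-flip permutation p = 1). The treatment difference of the stretch minus that of the rest was 0.302 points (exact permutation p = 1). With an island in untreated replicate 2 alone, every arrangement of labels or signs gives the same absolute difference. These permutation tests could therefore give no other p and cannot decide whether the mark differed. limma on 64218 steps called 0 higher and 0 lower genome-wide (0% and 0%), with 4.89% at an unadjusted p under 0.05; of the 2 steps tested in the windows 0 were called and 0 had an unadjusted p under 0.05. The count over all steps rested on the treated libraries: without treated replicate 2 limma called 12669 steps higher and 2534 lower, and without treated replicate 1 it called 0 higher and 762 lower, with 0 of the 2 keratin steps called in either fit. Those 2 fits tested 59945 steps without treated replicate 2 and 53730 without treated replicate 1. Of the 88 keratin steps without an H3K9ac peak in any library, 2 met the island and 86 had neither mark. An island list leaves out signal under the caller's threshold, so lower levels of the mark were not measured.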

How the data were processed

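Peaks of H3K9ac and islands of H3K9me2 were taken from 8 libraries, 2 per condition and mark, and from 2 reproducible H3K9ac sets; the 4 inputs were not analysed here. Per the submitters' processing notes the build was hg19 and the tools were MACS2, SICER, Picard, BWA 0.7.5 and Trimmomatic 0.32; their settings, and how inputs entered, are not stated there. The authors' score per peak or island was used only to rank intervals within a list. The deposited score of the reproducible sets was taken to be an irreproducible discovery rate as −log10, because its lowest value, 1.301, is that of a rate of 0.05. Positions came from the other deposited columns, and 1 bp was added to H3K9me2 ends, which are inclusive.

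Covered length was computed with Python 3.11.15, pandas 2.3.3 and numpy 2.4.6 in each window and in steps of 10 kb on 23 chromosomes, counted up to the last called interval of each. Window means were compared by exact two-sided permutation over libraries. Covered shares of steps, as arcsine square roots, were fitted by limma 3.58.1 (R 4.3.3; trend on the mean), leaving out steps at 0 in all 4 libraries. An overlap needed 1 bp in common. Both codes were tested on simulated data. Depth per library is unknown, so no counting interval is given. The windows, gene lists and tests were chosen with earlier results of these data known. The steps eligible to be named were the 6 of the stretch, the 10 with the highest mean coverage among the others that met a reproducible region, and those at least 50% covered by H3K9me2 in 1 library. Reproducible loci were listed in full by position. Sequences are RefSeq's. The alternatives tried are given in the closing section.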

Additional observations from a re-analysis of the deposited data

How the results depend on the processing

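The direction of the H3K9ac differences in covered share in the type II window, in the stretch, in the type II window without it, between stretch and rest, and of the treatment difference between stretch and rest was the same in every alternative run: lists of equal number, the higher-scoring part of each list, lists without the narrowest peaks (added after seeing the data) and each library left out. Leaving out 1 library gave ranges of 0.547 to 2.01 points for the type II window, 4.15 to 13.0 for the stretch, 0.255 to 1.11 for the type II window without it, 8.55 to 12.9 for stretch minus rest and 4.02 to 12.1 for the treatment difference between them. For the type I window the range was -0.207 to 1.00 points, the negative value being without untreated replicate 2. No label ties a replicate number to a batch. Deviations of same-numbered libraries correlated at -0.014 for H3K9ac and -0.078 for H3K9me2 over steps, and with the replicate block limma called 13 H3K9ac steps of the windows higher, 4 of them in the stretch, and 0 lower, against 6.91% and 0.0615% of all steps. Limma called 1 step higher on untransformed shares (1.41% of all steps) and 5 higher in steps of 5 kb (2.81%), against 0 in the fit reported. Keratin steps tested numbered 92 in the fit reported and 127 in steps of 5 kb. Without untreated replicate 2 they numbered 85, and without untreated replicate 1 they numbered 62. Leaving out 1 library gave 0 to 2 higher and 0 to 38 lower calls; the 38 were without untreated replicate 2, against 48.9% of all steps, and 15 were without untreated replicate 1, against 28.2%, fits in which the lone untreated library is assumed to vary like the treated ones. The cause of these shifts was not tested. Gained regions numbered 7 to 14 when 1 untreated library was left out (27.8% of all treated regions at the upper end). They numbered 14 when absence was judged from the untreated set (45.1%) and 5 when absence also required no peak within 1 kb (9.37%). Of the 13 untreated regions 1 was lost without treated replicate 1, against 5.13% of all untreated regions. Without treated replicate 2 the number lost was 0, against 5.48%. Judged from the treated set it was 1, against 7.28%. For H3K9me2 the type I difference, the stretch minus rest and the treatment difference between them became 0 with lists of equal number and with the higher-scoring part, which leave out the single island; leaving out 1 library gave -1.05 to 0, -0.201 to 0 and 0 to 0.603 points. H3K9me2 calls in the windows were 0 in every fit that tested a keratin step; without untreated replicate 2 none was left to test.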
